A study of Homo sapiens with 8 samples.

Results

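Tight junctions are the belts of membrane strands that seal neighbouring epithelial cells near their apical border. Their strands are built of claudins, which set how tight and how ion-selective the seal is, together with occludin and the immunoglobulin-type junctional adhesion molecules. On the cytoplasmic side, scaffold proteins of the ZO family and cingulin tie the strands to the actin cytoskeleton. The 9 genes described here are OCLN (occludin), the claudin genes CLDN1, CLDN3, CLDN4 and CLDN7, F11R (junctional adhesion molecule A), TJP1 and TJP3 (ZO-1 and ZO-3), and CGN (cingulin). They are 9 of 56632 genes in the count table and of 18431 genes that passed the filter on low counts, and all 9 passed it. The genes were chosen by name with their levels in these cells already known. Their levels and differences are therefore given as a description, and nothing is supported with them. The thresholds on adjusted p and fold used below come from edgeR's test over all genes. They only sort the differences of the 9 genes and are not read as evidence for them.

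The RNA-seq data came from 4 related mammary epithelial cell lines, each in 2 biological replicates, grown for 8 days as three-dimensional cultures with 2.5% Matrigel, a basement membrane extract, in a medium with 2% horse serum, hydrocortisone, cholera toxin and insulin. M1 is MCF10A, a non-tumorigenic line. M2 is MCF10AT1k.cl2, made from MCF10A by transfection with an activated HRAS oncogene and passage as a xenograft. When M2 was grown in mice, some grafts became carcinomas, and lines taken from these include M3 (MCF10Ca1h), which forms well-differentiated tumors, and M4 (MCF10CA1a.cl1), whose tumors are undifferentiated. The names of M2 and M4 carry clone labels. The medium held 10 ng/ml EGF for M1 and M2 and no EGF for M3 and M4, and therefore line and EGF cannot be told apart where M3 or M4 is compared with M1 or M2. The study's methods name the lines grown with EGF as "M2-M2", which was read here as M1 and M2. On that reading, M4 against M3 and M2 against M1 are comparisons within the same medium.

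Library totals ran from 69669970 to 107350344 counts. HRAS, the gene transfected to make M2, was at 154 and 139 CPM (counts per 1000000 counts) in the M1 libraries, 160 and 153 in those of M2, 269 and 327 in those of M3, and 335 and 352 in those of M4. The summed level of 8 basal epithelial markers was between 9145 and 16680 CPM in every library, while the fibroblast markers COL1A2 and LUM never passed 3 counts. Single basal markers moved both ways in M4 against M1. KRT14, TP63 and KRT5 were called lower (log2 fold changes of −2.37, −1.38 and −1.26). LAMB3 and ITGA6 were called higher (2.64 and 1.24), beside 11.2% of all genes lower and 9.48% higher. In M3 against M1, 5 of the 8 were called higher and 0 lower, beside 8.02% and 5.51%. Of 6 leukocyte markers, 4 (PTPRC, CD3E and LST1 among them) never passed 3 counts, but CD14 was at up to 24.6 CPM in M1 and CSF1R at a mean of 22.3 CPM in M4, and the summed level of the list ran from 16.0 to 36.3 CPM in M1, 8.54 to 8.86 in M2, 7.15 to 16.9 in M3 and 22.1 to 25.7 in M4. The summed level of 5 general epithelial markers ran from 1376 to 1527 CPM in M1, 1794 to 1838 in M2, 2390 to 2529 in M3 and 3102 to 4760 in M4, and the part of these sums in the differences below was not tested. That of 7 fibroblast markers ran from 6.43 to 7.60 CPM in M4 and from 9.36 to 74.8 in the other lines, and DCN (decorin), a matrix proteoglycan, made up 60.2 and 58.6 CPM of it in M2. The M2 replicates were far closer than the others: the chi-square of their counts per degree of freedom was 6.65, against 111 in M4, 233 in M1 and 293 in M3. A table published with the study attaches the library labelled M1 replicate 2 to M2 and the library labelled M2 replicate 1 to M1 (r = 0.977 and 0.957, taken across 268 genes and so not over replicates). The remaining 6 columns matched the library of their own label (r of 0.960 to 0.982). Libraries keep the line of their sample label here, and for the 9 genes the effect of exchanging these libraries is given beside their differences. With the exchange, edgeR's test called 0 of 18431 genes in M2 against M1, where 315 had an unadjusted p under 0.05.

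The stretches of sequence just before the transcription starts of these genes were read from GRCh37 (hg19), the build of the count table. In the 250 bases before the start of the canonical transcript, matches on either strand were sought for CACCTG, the E-box bound by SNAI and ZEB repressors, AACCNGTT, bound by grainyhead factors, TGANTCA, bound by AP-1, and GGGCGG, the GC box. The E-box was found for 3 of 9 genes, OCLN, CLDN7 and F11R, and in 17.3% of 18986 promoters of protein-coding genes. The grainyhead motif was found only for CGN among the 9 genes and in 1.27% of promoters, and the AP-1 motif only for CLDN4 and in 4.67%. A GC box was found for 8 of 9 genes, OCLN being the exception, and in 60.1% of promoters. The lines below show the E-boxes of OCLN, CLDN7 and F11R, and the AP-1 and grainyhead matches. Capitals mark the motif, and each line reads 5′ to 3′ on the strand of the gene.
OCLN E-box at 133 bases before the start, chr5:68788474-68788499, plus strand: taggacgcagCAGGTGggactcgcgg
CLDN7 E-box at 174 bases before the start, chr17:7165956-7165981, minus strand: tcttcctcctCACCTGggcaaggagg
CLDN7 E-box at 135 bases before the start, chr17:7165917-7165942, minus strand: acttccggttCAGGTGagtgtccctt
CLDN7 E-box at 20 bases before the start, chr17:7165802-7165827, minus strand: tacatatactCAGGTGcgccccacct
CLDN7 E-box at 9 bases before the start, chr17:7165798-7165816, minus strand: aggtgcgcccCACCTGtcc
F11R E-box at 247 bases before the start, chr1:160991174-160991192, minus strand: cgtCACCTGctgaaggtgc
F11R E-box at 131 bases before the start, chr1:160991058-160991083, minus strand: ggcggggtaaCACCTGgccgaggtga
F11R E-box at 19 bases before the start, chr1:160990946-160990971, minus strand: ggcggggttcCACCTGgcggctggct
CLDN4 AP-1 motif at 242 bases before the start, chr7:73245076-73245100, plus strand: ctgggctgTGATTCAgtgtctgtct
CLDN4 AP-1 motif at 161 bases before the start, chr7:73245155-73245181, plus strand: gactggatagTGACTCAgggacccggg
CGN grainyhead motif at 27 bases before the start, chr1:151483826-151483853, plus strand: gcagcggagtAACAGGTTggtgggaggg
The windows of CLDN4 and CLDN7 lie wholly, and those of OCLN, F11R, TJP1 and TJP3 partly, within exons of other annotated transcripts of the same genes. Exons annotated to other genes cover parts of the windows of CLDN1, TJP1 and F11R. A match of letters says nothing of binding in these cells, and no binding was measured.

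M4 had the highest mean CPM for OCLN, CLDN1, CLDN3, CLDN4, CLDN7 and TJP1, M1 for TJP3 and CGN, and M3 for F11R. M2 had the lowest mean for OCLN, CLDN1, CLDN4, CLDN7, TJP1 and F11R. Differences below are log2 fold changes ± SE from a model over all 8 libraries, and a gene met the thresholds where the adjusted p was under 0.05 and the fold above 2. In M4 against M1, OCLN, CLDN3, CLDN4 and CLDN7 met them as higher and TJP3 as lower, where 9.48% of all genes tested were called higher and 11.2% lower. In M4 against M3, 4 genes (OCLN, CLDN4, CLDN7 and CGN) met them as higher and 0 as lower, beside 3.99% and 6.3% of all genes. In M2 against M1, 0 genes met them as higher and 3 as lower (OCLN, CLDN7 and TJP3), beside 2.26% and 1.11% of all genes. In M3 against M1, 0 met them as higher and 2 as lower (TJP3 and CGN), beside 8.02% and 5.51%. In M3 against M2, 2 met them as higher (OCLN and CLDN7) and 0 as lower, beside 2.95% and 1.2%. The 9 genes were picked with these contrasts known, so the counts are read no further. The comparisons share libraries, and M1, M2, M3 and M4 each enter more than 1 of them. The median log2 fold change of the 9 genes was −0.77 in M2 against M1, −8.5e-05 in M3 against M1, 0.86 in M4 against M1, 0.34 in M3 against M2 and 1.25 in M4 against M3 (the value of CLDN3, which rested on few counts), where that of all genes lay between −0.04 and −0.0037.

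**Figure D1:**
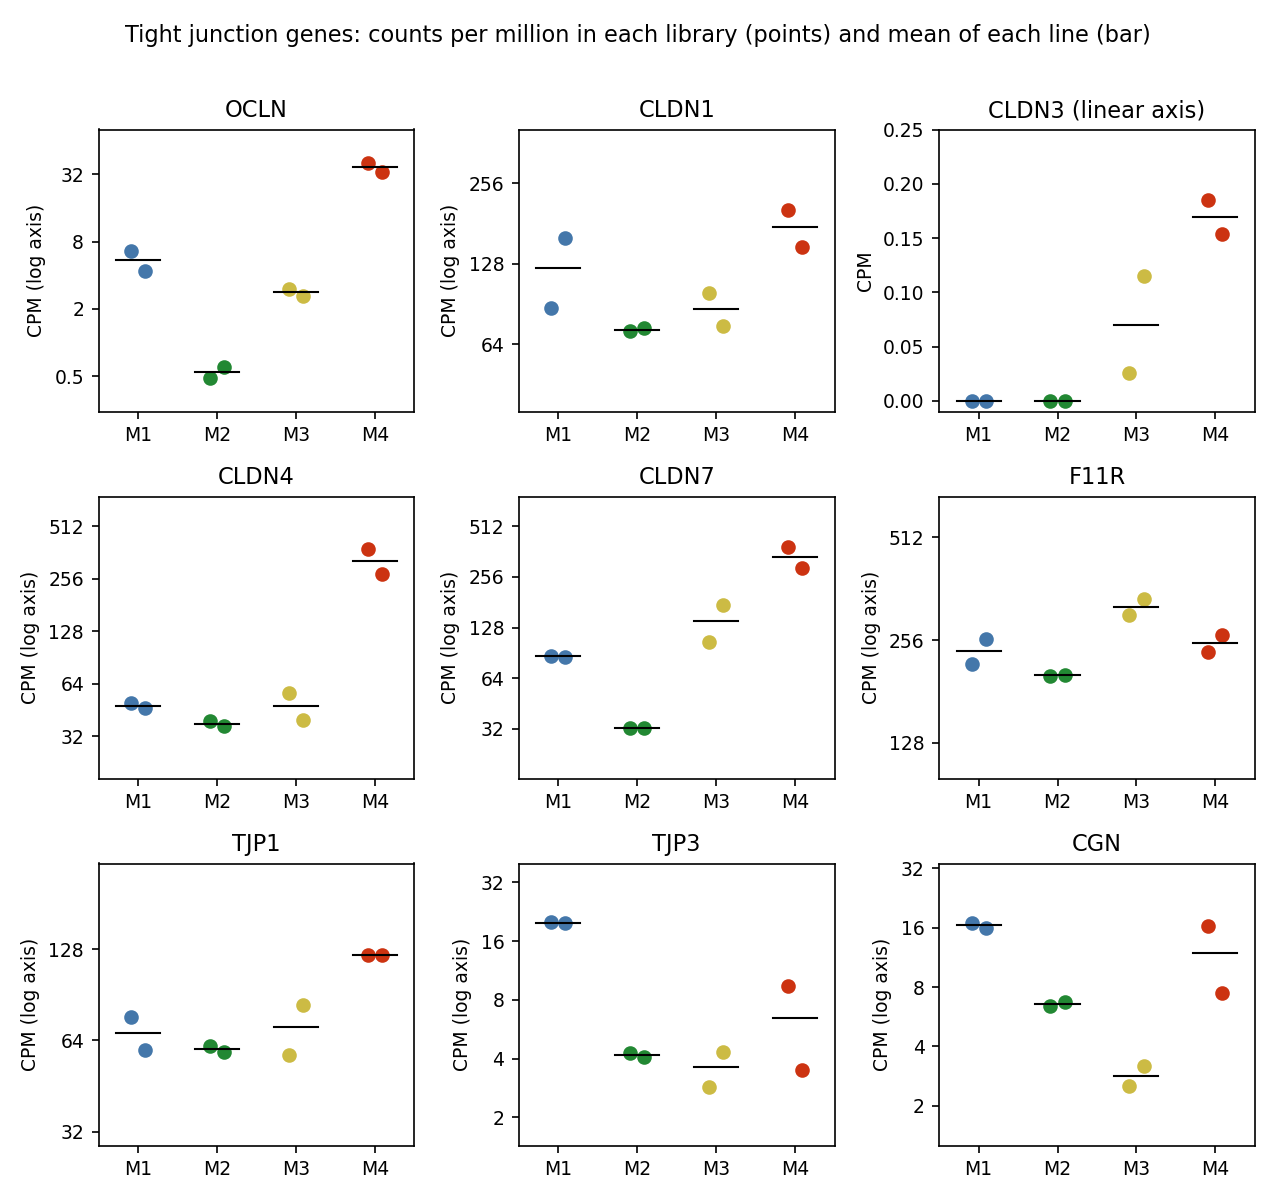
Level of each of the 9 tight junction genes in CPM (y axis) in the 4 lines (x axis), with a log2 axis for all genes but CLDN3. Points are the 2 libraries of a line and black bars their mean, and OCLN, CLDN4 and CLDN7 have both M4 points above all others.

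OCLN had the widest range of line means among the 8 genes with counts in every library, CLDN3 being left out. The gene lies on chromosome 5 from 68788119 to 68853931 on the plus strand (ENSG00000197822), and its product, occludin, is a membrane protein with 4 spans that takes part in the strands and in their regulation. Its level was 6.55 and 4.35 CPM in the M1 libraries, 0.484 and 0.611 in those of M2, 3.02 and 2.63 in those of M3, and 40.1 and 33.5 in those of M4. The libraries of the 4 lines did not overlap, in the order M4, M1, M3, M2. OCLN in M2 was 10.0-fold under M1 (log2 fold change −3.32 ± 0.28) and rested on 49.3 and 43 counts. In M4 it was 6.75-fold over M1 (2.76 ± 0.26) and 13.0-fold over M3 (3.70 ± 0.28). In M3 it was 5.19-fold over M2 (2.38 ± 0.28), and against M1 its log2 fold change was −0.95 ± 0.25, short of the thresholds. Exchange of M1 replicate 2 and M2 replicate 1 put OCLN short of the thresholds in every comparison, with log2 fold changes of −0.49 ± 1.11 in M2 against M1, 3.39 ± 1.20 in M4 against M1 and 0.18 ± 1.11 in M3 against M2. Without either M2 library OCLN also fell short of them in M2 against M1, at −3.59 to −3.004 over the libraries left out in turn, and in M3 against M2, at 2.21 to 2.55. Without M1 replicate 2 it met them in M3 against M1, at −1.21.

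CLDN7 and CLDN4 were the most abundant claudin genes in M4. CLDN7 lies on chromosome 17 from 7163222 to 7167302 on the minus strand (ENSG00000181885), and claudin-7 is found along the lateral membrane as well as in the junction. Its level was 86.6 and 86.0 CPM in the M1 libraries, 32.5 and 32.3 in those of M2, 105 and 175 in those of M3, and 386 and 290 in those of M4. The libraries did not overlap between lines, in the order M4, M3, M1, M2. CLDN7 in M2 was 2.67-fold under M1 (log2 fold change −1.42 ± 0.25), in M3 4.32-fold over M2 (2.11 ± 0.25), and in M4 3.92-fold over M1 (1.97 ± 0.25) and 2.42-fold over M3 (1.27 ± 0.25). The log2 fold change of CLDN7 in M4 against M3 was 0.94 without M3 replicate 1 and 1.06 without M4 replicate 1, short of the thresholds in both cases. Its difference in M2 against M1 (−1.42 to −1.41) fell short without M1 replicate 1 or either M2 library, that in M3 against M2 (1.70 to 2.44) without either M2 library, and that in M3 against M1, 0.70 ± 0.25, met the thresholds without M3 replicate 1 (1.03). With M1 replicate 2 and M2 replicate 1 exchanged, the difference of CLDN7 between M2 and M1 was −0.0085 ± 0.57, and M4 stayed past the thresholds against M1 at 2.51 ± 0.60. The exchange also put CLDN7 short of them in M4 against M3, at 1.27 ± 0.58, and in M3 against M2, at 1.24 ± 0.58. Of the exon bases of CLDN7, 10.8% are shared with the transcript ENSG00000262302 on the same strand, which had at most 1 count in a library, and 1.52% with ELP5 on the opposite strand. The mean level of ELP5 was between 30.7 and 40.9 CPM in the 4 lines.

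CLDN4 is a gene of 1 exon in its canonical transcript on chromosome 7 (73213872 to 73247020, plus strand, ENSG00000189143), and claudin-4 tightens the seal against sodium ions. Its level was 49.5 and 46.4 CPM in the M1 libraries, 39.0 and 36.5 in those of M2, 56.4 and 39.5 in those of M3, and 379 and 271 in those of M4. M1, M2 and M3 lay close together, with M1 and M3 at the same mean of 47.9 CPM and overlapping libraries, and both M4 libraries were far above them. CLDN4 was 6.78-fold over M1 in M4 and 6.78-fold over M3, with a log2 fold change of 2.76 ± 0.23 in each case. These were the differences that met the thresholds under all 11 alternatives, as did that of CLDN7 in M4 against M1. In M3 against M1 the log2 fold change of CLDN4 was −8.5e-05, and in M2 against M1 it was −0.34. With the exchange CLDN4 stood at 2.88 ± 0.29 in M4 against M1 and −0.09 ± 0.27 in M2 against M1.

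CLDN3 is the neighbour of CLDN4 on chromosome 7 (73183327 to 73184600, minus strand, ENSG00000165215), a single-exon gene of another claudin of the epithelial seal. It had 0 counts in the 4 libraries of M1 and M2, 2 and 10 in those of M3, and 21 and 12 in those of M4. At its highest it was at 0.185 CPM, and it passed the filter on low counts only through M4, the line in which it was highest. Set against a floor of 3 counts per library, it was at least 4.65-fold higher in M4 than in M1. CLDN3 did not meet the thresholds in M4 against M1 with a replicate block, with the 2 libraries exchanged, or without any 1 of the M1 or M4 libraries, and it did not pass a filter of 10 counts in 4 libraries.

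CLDN1 lies on chromosome 3 (190023496 to 190040235, minus strand, ENSG00000163347), and claudin-1 is needed for the water barrier of the skin. Its level was 87.5 and 159 CPM in the M1 libraries, 71.6 and 73.2 in those of M2, 99.1 and 74.8 in those of M3, and 203 and 148 in those of M4. The M1 libraries overlapped with those of M3 and of M4, and their spread was wider than the distance between most lines. No difference of CLDN1 met the thresholds, the nearest being 1.01 ± 0.29 in M4 against M3, which passed them under 5 of 11 alternatives. Without M1 replicate 2, CLDN1 met them in M4 against M1, at 1.002. The exchange turned its difference in M2 against M1 from −0.77 ± 0.29 to 0.55 ± 0.37 and raised that in M4 against M1 from 0.51 ± 0.29 to 1.14 ± 0.37, none of them past the thresholds.

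Over all 23 claudin genes of the table, the summed level per kilobase of canonical transcript was 484 ± 103 CPM in M4, 156 ± 19.5 in M3, 134 ± 16.0 in M1 and 73.7 ± 0.28 in M2 (SD, n = 2). With the 2 libraries exchanged it was 98.0 ± 34.2 in M1 and 109 ± 50.4 in M2, so that the order of these lines turned. CLDN4 and CLDN7 together made up 84.9% ± 0.25 of this sum in M4, 75.7% ± 6.62 in M3, 63.6% ± 8.78 in M1 and 58.7% ± 1.29 in M2. The share of CLDN4 was 18.5% ± 6.81 in M3 and 39.5% ± 0.88 in M4, while that of CLDN7 was 57.2% ± 13.4 and 45.4% ± 0.63. CLDN1 took 26.4% ± 7.91 of the sum in M1 and 10.5% ± 0.11 in M4. In M2 the shares of CLDN1, CLDN4 and CLDN7 were nearly equal, at 28.5%, 30.2% and 28.5%. Of the 23 genes, 15 never reached 1 CPM and 5 reached 10 CPM in at least 1 library. Shares and sums follow from the members' levels and were not tested.

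**Figure D2:**
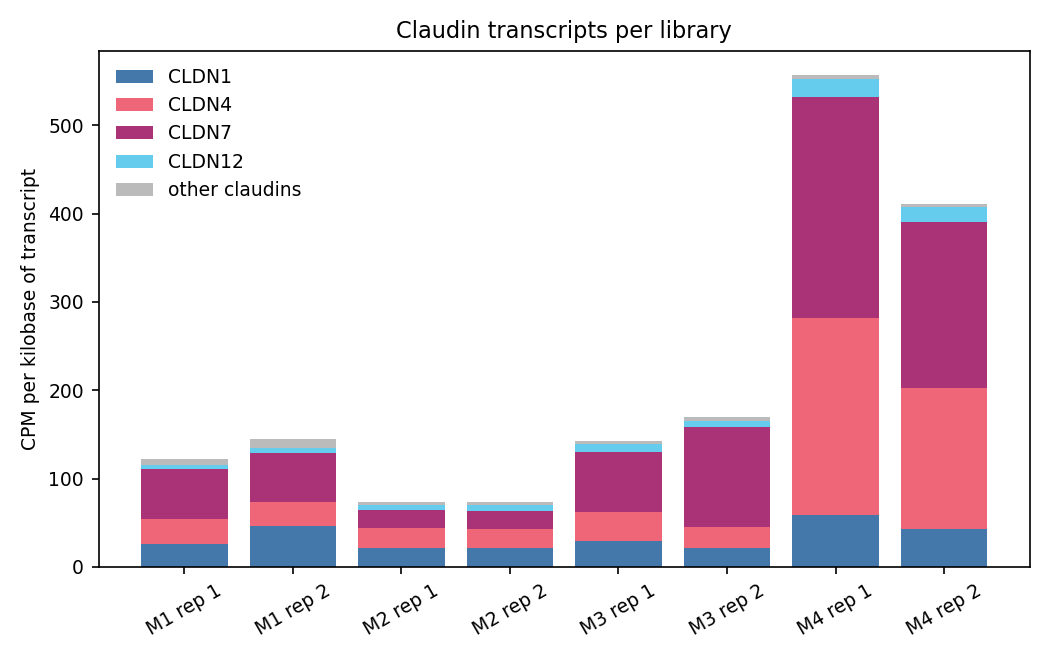
Stacked bars of claudin transcripts in each of the 8 libraries, in CPM per kilobase of canonical transcript (y axis, from 0), with CLDN1, CLDN4, CLDN7, CLDN12 and all other claudins as segments. The 2 M4 bars reach 557 and 411, against 73.5 to 170.0 in the other libraries.

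F11R lies on chromosome 1 (160965001 to 160991133, minus strand, ENSG00000158769), and junctional adhesion molecule A recruits polarity proteins to young junctions. Its level was 218 and 258 CPM in the M1 libraries, 201 and 203 in those of M2, 303 and 338 in those of M3, and 236 and 265 in those of M4. It was the member with the narrowest range among those above 1 CPM, with M3 highest and the M4 and M1 libraries overlapping. No difference of F11R met the thresholds, and its log2 fold changes ran from −0.36 in M4 against M3 to 0.67 ± 0.15 in M3 against M2. With the exchange the difference of F11R in M2 against M1 went from −0.24 ± 0.15 to 0.14 ± 0.20. Per kilobase, F11R was at 51.3 CPM in M1, next to CLDN7 at 56.0, CLDN1 at 35.8 and CLDN4 at 28.3. In M4 it was at 54.0 CPM per kilobase, beside 219 for CLDN7, 192 for CLDN4 and 5.96 for OCLN.

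Of the plaque genes, TJP1 had its highest level in M4, and TJP3 and CGN had theirs in M1. TJP1 lies on chromosome 15 (29991571 to 30261118, minus strand, ENSG00000104067), and ZO-1 binds claudins through its PDZ domains. Its level was 76.3 and 59.4 CPM in the M1 libraries, 61.6 and 58.6 in those of M2, 57.5 and 84.0 in those of M3, and 123 and 122 in those of M4. Both M4 libraries were above all others, and M1, M2 and M3 overlapped in neighbouring pairs. The log2 fold change of TJP1 was 0.86 ± 0.20 in M4 against M1 and 0.80 ± 0.20 in M4 against M3, under the 2-fold limit. It met the thresholds in the first without M1 replicate 1 (1.06) and in the second without M3 replicate 2 (1.09). With the exchange these differences were 0.83 ± 0.22 and 0.80 ± 0.22.

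TJP3 lies on chromosome 19 (3708360 to 3750811, plus strand, ENSG00000105289) and encodes ZO-3, a ZO protein found in epithelia. Its level was 19.9 and 19.8 CPM in the M1 libraries, 4.26 and 4.07 in those of M2, 2.87 and 4.34 in those of M3, and 9.46 and 3.51 in those of M4. Both M1 libraries were above the other 6, whose lines overlapped in neighbouring pairs. TJP3 was 4.78-fold under M1 in M2 (−2.26 ± 0.45), 5.52-fold in M3 (−2.46 ± 0.45) and 3.06-fold in M4 (−1.61 ± 0.44). The difference in M4 fell short of the thresholds without M1 replicate 1 (−1.59), without M1 replicate 2 (−1.62) and without M4 replicate 2 (−1.05). That in M2 fell short without any 1 of the M1 or M2 libraries, at −2.29 to −2.22, and that in M3 without M3 replicate 1, at −2.19. Without M4 replicate 2, TJP3 met the thresholds as higher in M4 than in M3, at 1.41. With the 2 libraries exchanged, none of the 3 met the thresholds, and the difference in M2 was −0.017 ± 0.90, while that in M3 against M2 went from −0.21 ± 0.43 to −1.73 ± 0.93. TJP3 shares 1.06% of its exon bases with APBA3 on the opposite strand.

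CGN lies on chromosome 1 (151482986 to 151511168, plus strand, ENSG00000143375), and cingulin connects the plaque with actomyosin. Its level was 16.9 and 15.9 CPM in the M1 libraries, 6.39 and 6.72 in those of M2, 2.51 and 3.17 in those of M3, and 16.3 and 7.46 in those of M4. M3 was lowest without overlap, and the M4 libraries spanned the distance from M2 to M1. CGN was 5.78-fold under M1 in M3 (−2.53 ± 0.37) and 4.18-fold over M3 in M4 (2.06 ± 0.36). The difference of CGN between M4 and M3 was 1.90 without M3 replicate 1, short of the thresholds, and 1.39 without M4 replicate 1. In M2 against M1 it was −1.32 ± 0.35, short of the thresholds, which it met under 3 of 11 alternatives, as it did in M3 against M2, where it was −1.21 ± 0.35. In M4 against M1 it met them only without M4 replicate 1, at −1.13. With the 2 libraries exchanged, CGN met them in no comparison, at −2.03 ± 0.63 in M3 against M1, 2.06 ± 0.63 in M4 against M3 and −0.04 ± 0.60 in M2 against M1.

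**Figure D3:**
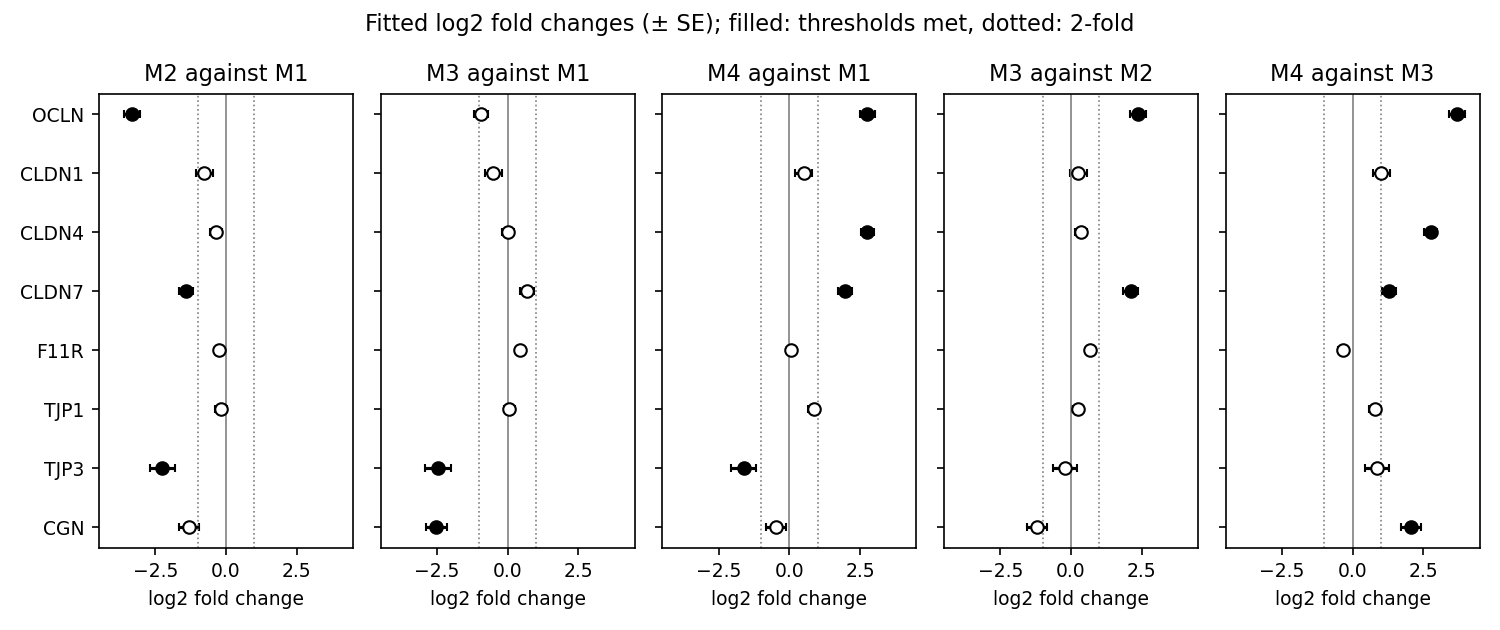
Fitted log2 fold changes (x axis) ± SE of 8 tight junction genes in 5 comparisons of lines, with filled points where the thresholds were met and dotted lines at 2-fold. CLDN3 is not drawn because it had 0 counts in M1 and M2, and OCLN lies at −3.32 in M2 against M1 and at 3.70 in M4 against M3.

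Across the 8 libraries, log2 CPM of OCLN went with that of CLDN4 (r = 0.92), CLDN7 (r = 0.91) and TJP1 (r = 0.87), and TJP3 went with CGN (r = 0.85). OCLN and TJP3 had r = 0.24, and CLDN4 and TJP3 r = −0.020. The 8 libraries share 4 lines, so these values describe a pattern of lines and carry no p. Among 14088 protein-coding genes ranked, those whose levels were most like OCLN were TMEM125 (r = 0.990), EBLN2 (r = 0.988) and ATP10B (r = 0.983). TMEM125 was at 4.87 and 4.76 CPM in the M1 libraries, 1.55 and 0.981 in those of M2, 3.40 and 2.93 in those of M3, and 21.9 and 18.2 in those of M4. Those most like CLDN7 were TINAGL1 (r = 0.986), ENTREP1 (r = 0.980) and MGAT4A (r = 0.977), and TINAGL1 was at 148 and 159 CPM in the M1 libraries, 96.2 and 95.3 in those of M2, 215 and 268 in those of M3, and 416 and 301 in those of M4.

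The other tight junction genes were taken from a list of 53, of which 43 passed the filter on low counts, and these were tested as part of the fit over 18431 genes (edgeR's quasi-likelihood test, Benjamini-Hochberg adjustment). The list includes 2 genes of membrane proteins that bind claudins, EPCAM among them. EPCAM is also 1 of the 5 general epithelial markers. In M4 against M1, 8 rose and 1 fell, with a median log2 fold change of 0.11, beside −0.02 for all genes. EPCAM is 1 of the 8. CLDN9, another of them, passed the filter on low counts only through M4, the line in which it was highest. In M4 against M3, 3 rose and 1 fell (median 0.16). In M3 against M1, 4 rose, EPCAM among them, and 2 fell (median −0.11), and in M3 against M2, 2 rose and 1 fell (median 0.35). In M2 against M1, 0 rose and 2 fell (median −0.31), and 10 of 43 had an unadjusted p under 0.05. DESeq2 called 0 as higher and 4 as lower in M2 against M1, beside 3.29% and 3.84% of all genes in its own test. In M4 against M1, DESeq2 called 7 as higher and 3 as lower, beside 9.47% and 11.3%. For edgeR's calls the shares of all genes are those given above, and of 43 genes tested most did not pass in any comparison.

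MARVELD2, which encodes tricellulin at the corners of 3 cells and lies beside OCLN, was at 20.4 and 18.7 CPM in the M1 libraries, 18.2 and 17.9 in those of M2, 13.9 and 20.9 in those of M3, and 21.3 and 30.9 in those of M4. Its log2 fold change was 0.42 ± 0.24 in M4 against M1 (adjusted p = 0.231) and it passed in no comparison.

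Among the 19 other claudin genes, of which 11 were tested, CLDN8 and CLDN12 moved in opposite directions. CLDN8, a claudin of kidney and gut epithelia, was at 8.88 and 12.4 CPM in the M1 libraries, 2.08 and 2.52 in those of M2, 0.114 and 0.356 in those of M3, and 0.0705 and 0.0641 in those of M4. The libraries of the 4 lines did not overlap, and in M4 they held 8 and 5 counts. Against M1, the log2 fold change of CLDN8 was −2.21 ± 0.46 in M2 (adjusted p = 0.0393), −5.48 ± 0.55 in M3 (adjusted p = 0.00111) and −7.265 ± 0.62 in M4 (adjusted p = 0.000333), a fall in each case. The call in M4 held under all 11 alternatives and that in M3 was lost only with the 2 libraries exchanged, where it stood at an adjusted p of 0.0938. The call in M2 was lost with the exchange and without any 1 library of M1 or M2. In M3 against M2, CLDN8 fell by 3.27 ± 0.51 (adjusted p = 0.0135), a call lost with the exchange and without either M2 library. CLDN12, which lacks the tail by which most claudins bind ZO proteins, was at 15.8 and 17.9 CPM in the M1 libraries, 19.8 and 21.9 in those of M2, 33.5 and 25.7 in those of M3, and 72.2 and 57.9 in those of M4. CLDN12 rose in M4 by 1.95 ± 0.19 against M1 (adjusted p = 0.000519) and by 1.13 ± 0.19 against M3 (adjusted p = 0.00915), and the first call held under all 11 alternatives. The second was lost without M3 replicate 2 or M4 replicate 1, at log2 fold changes from 0.95 to 1.33.

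CLDN20 was high in M3 alone, with 77 and 215 counts there, 2 and 10 in M1, 2 and 5 in M2, and 19 and 9 in M4. CLDN20 rose in M3 by 4.53 ± 0.90 against M1 (adjusted p = 0.0123) and 5.28 ± 0.96 against M2 (adjusted p = 0.0213), and in M4 against M3 it fell by 3.58 ± 0.84 (adjusted p = 0.0273). All 3 calls were lost without M3 replicate 2, the library with 215 counts, the second also without either M2 library and the third without either M4 library. The highest adjusted p over the alternatives was 0.0674, 0.204 and 0.137. The calls of CLDN15, CLDN23 and CLDN9 were near the thresholds. In M3 against M1, CLDN15 fell by 1.26 ± 0.34 (adjusted p = 0.0363), CLDN23 rose by 1.61 ± 0.44 (adjusted p = 0.0386) and in M4 against M1, CLDN9 rose by 2.35 ± 0.74 (adjusted p = 0.0447). These calls were lost under 6 of 11, 8 of 11 and 8 of 10 alternatives, and CLDN23 shares 72.5% of its exon bases with an annotated pseudogene on the same strand. CLDN9 held 39 and 37 counts in M4 and at most 13 in any library of another line. It passed the filter on low counts only through M4, so its call is given as a description.

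Of the 10 other membrane proteins of the junction, 9 were tested and only ILDR1, an angulin of tricellular contacts, passed in edgeR's test. Its level was 1.84 and 0.756 CPM in the M4 libraries and 0.302 and 0.207 in those of M1, and in M4 it rose by 2.35 ± 0.60 (adjusted p = 0.0211), a call lost under 4 of 11 alternatives. Of 22 other plaque and polarity genes, 21 were tested. In M4 against M1, ARHGEF2, a guanine nucleotide exchange factor that cingulin holds at the junction, rose by 1.16 ± 0.23 (adjusted p = 0.00788), AMOTL2, of the angiomotin family, by 1.30 ± 0.38 (adjusted p = 0.0344), and CRB3, the apical polarity protein Crumbs, by 1.02 ± 0.25 (adjusted p = 0.0178). ARHGEF2 also rose in M3, by 1.43 ± 0.23 against M1 (adjusted p = 0.00573) and 1.35 ± 0.23 against M2 (adjusted p = 0.0179). PARD6B, a subunit of the Par polarity complex, rose in M4 against M3 by 1.75 ± 0.38 (adjusted p = 0.0210), a call lost under 4 of 11 alternatives (1.43 to 2.17). The call of ARHGEF2 in M4 was lost only without M1 replicate 1 (0.98), that of CRB3 with the 2 libraries exchanged and without M1 replicate 2 or M4 replicate 1 (0.74 to 1.37), and that of AMOTL2 under 5 of 11 alternatives (0.80 to 2.10). That of ARHGEF2 in M3 held under all 11 alternatives against M1 and was lost under 4 of 11 against M2.

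EPCAM, which encodes a membrane protein that binds claudin-7, was at 49.9 and 72.6 CPM in the M1 libraries, 70.9 and 72.2 in those of M2, 117 and 184 in those of M3, and 166 and 199 in those of M4, so that M3 and M4 overlapped above M1 and M2. EPCAM rose in M3 by 1.30 ± 0.25 (adjusted p = 0.0117) and in M4 by 1.57 ± 0.26 (adjusted p = 0.00379) against M1, the second call holding under all 11 alternatives. The first was lost with the exchange, without M1 replicate 1 and without M3 replicate 2.

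**Figure D4:**
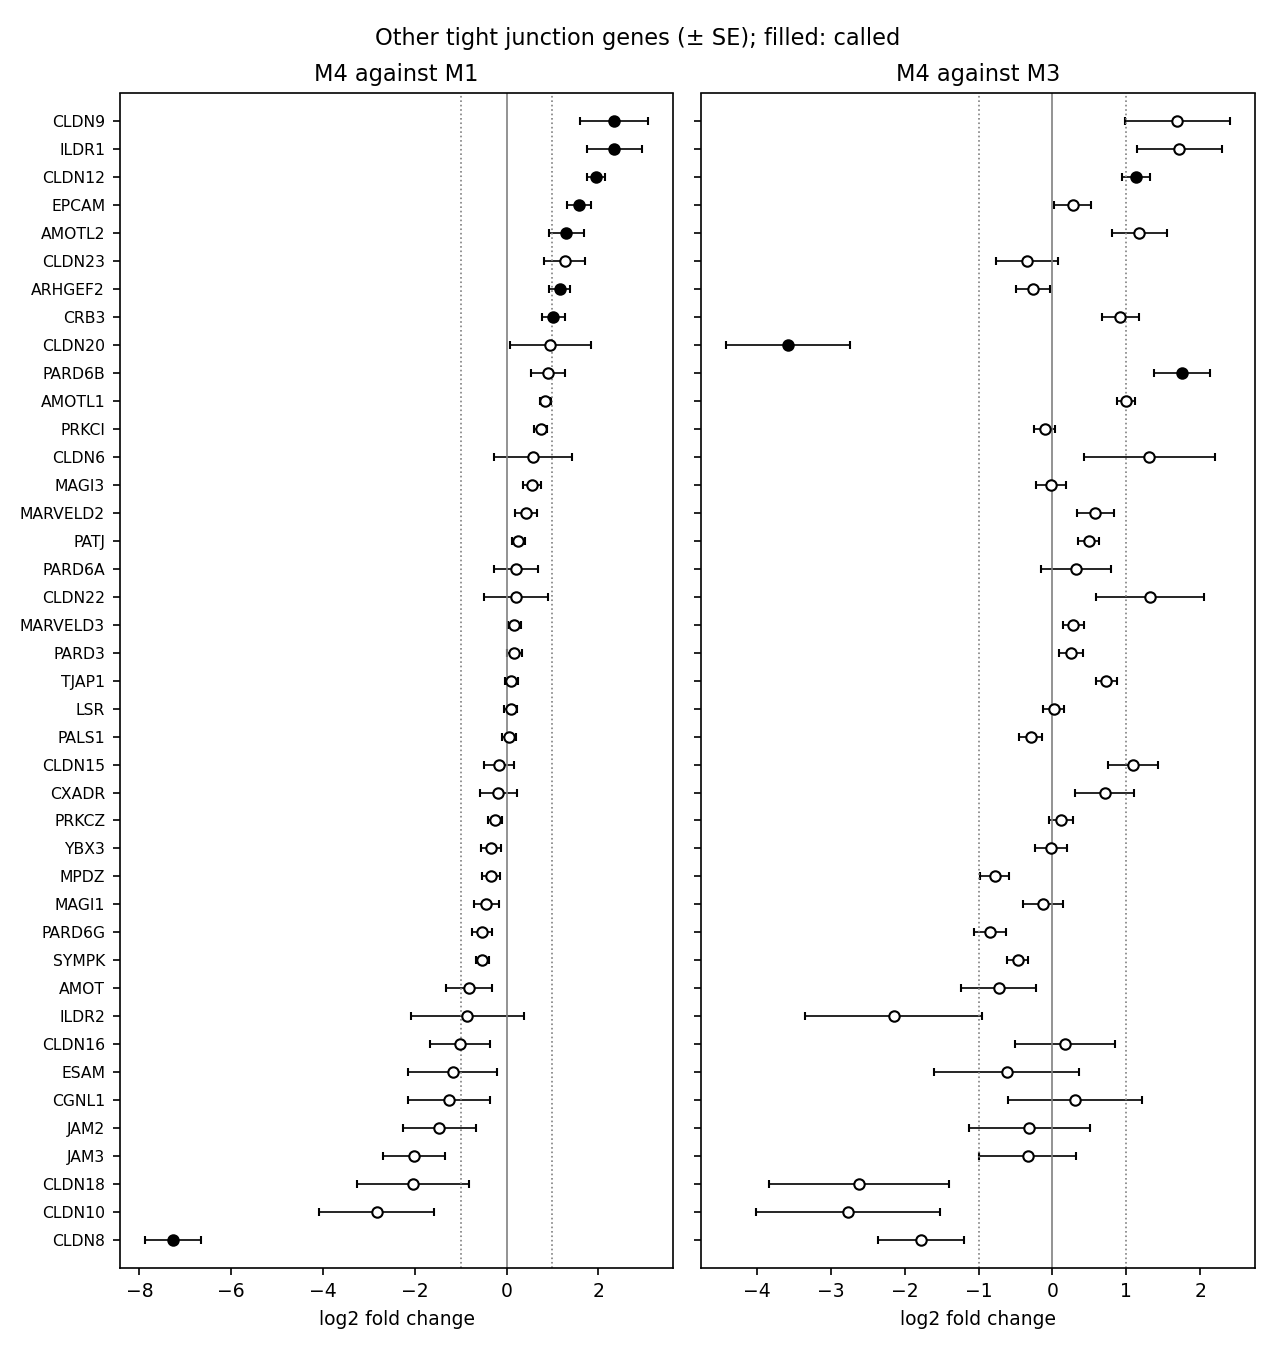
Log2 fold changes (x axis) ± SE of 41 of the 43 other tight junction genes tested, in M4 against M1 and in M4 against M3, ordered by the first, with filled points for genes called and dotted lines at 2-fold. In M4 against M1, 7 filled points lie to the right and CLDN8 alone lies to the left, at −7.265.

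The adherens junction, the cadherin-based contact below the tight junction, was followed with 10 genes, all tested. CDH1, which encodes E-cadherin, was at 185 and 220 CPM in the M1 libraries, 159 and 156 in those of M2, 126 and 148 in those of M3, and 222 and 211 in those of M4. CDH1 was not called in any comparison. Its log2 fold change was 0.09 ± 0.15 in M4 against M1 (adjusted p = 0.659), and 0.66 ± 0.15 in M4 against M3 (adjusted p = 0.0232), under the 2-fold limit. Only nectin genes, whose products start cell contacts, were called. NECTIN3 rose against M1 in M2 by 1.5 ± 0.23 (adjusted p = 0.0150), in M3 by 2.63 ± 0.24 (adjusted p = 0.000804) and in M4 by 2.36 ± 0.24 (adjusted p = 0.000588), and in M3 against M2 by 1.13 ± 0.23 (adjusted p = 0.0333). With the 2 libraries exchanged NECTIN3 was called in none of them, at log2 fold changes of −0.014 in M2 and 1.42 in M4 against M1. The calls in M2 against M1 and M3 against M2 were also lost without either M2 library. NECTIN4, like CGN, was lowest in M3, with log2 fold changes of −1.44 ± 0.21 in M3 against M1 (adjusted p = 0.00405) and 1.82 ± 0.21 in M4 against M3 (adjusted p = 0.00333). Both calls of NECTIN4 were lost with the exchange and under no other alternative.

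The regulators were 12 transcription factors known to activate epithelial genes and 8 known to repress junction genes. Of the 12 activators, 1 rose and 1 fell in M4 against M1, 3 rose and 1 fell in M4 against M3, 2 fell in M3 against M1 and 1 fell in M3 against M2, while 0 were called in M2 against M1, where 2 of 12 had an unadjusted p under 0.05. The shares of all genes called are those given for the 9 genes, such as 5.51% lower in M3 against M1. DESeq2 called 2 activators as lower in M2 against M1 and 5 as lower in M3 against M1, beside 3.84% and 6.83% of all genes in its own test. GRHL2, a grainyhead factor that activates claudin and cadherin genes, was at 80.1 and 55.7 CPM in the M1 libraries, 56.8 and 56.6 in those of M2, 23.5 and 32.1 in those of M3, and 33.5 and 41.5 in those of M4. In M3, GRHL2 fell by 1.29 ± 0.23 against M1 (adjusted p = 0.00787), and its log2 fold change against M2 was −1.03 ± 0.23 (adjusted p = 0.0422). The first call was lost with the exchange and without M1 replicate 1, and the second under 6 of 11 alternatives. GRHL2 was not called in M4, at −0.86 ± 0.23 against M1. KLF4 rose in M4 by 1.18 ± 0.22 against M1 (adjusted p = 0.00634) and by 1.63 ± 0.22 against M3 (adjusted p = 0.00533), and the first call was lost with the exchange and without M4 replicate 1 (0.86). GRHL3 and OVOL1 rose in M4 against M3 by 2.93 ± 0.58 (adjusted p = 0.0164) and 2.96 ± 0.63 (adjusted p = 0.0202), and both calls were lost without either M4 library, that of GRHL3 also without M3 replicate 2 and that of OVOL1 without M3 replicate 1. In M3 against M1, TFAP2A fell by 1.12 ± 0.14 (adjusted p = 0.00231). In M4, TFAP2C fell by 1.44 ± 0.32 against M1 (adjusted p = 0.0129), and its log2 fold change against M3 was −1.39 ± 0.32 (adjusted p = 0.0260), and both calls were lost under 4 of 11 alternatives, either M4 library left out among them.

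Repressors moved both ways in M4. Of the 8 tested, 2 rose and 3 fell in M4 against M1, beside 9.48% and 11.2% of all genes. In M4 against M3, 1 rose and 3 fell, beside 3.99% and 6.3%. In the other 3 comparisons 0 were called, and 1 of 8 (M2 against M1), 2 of 8 (M3 against M1) and 2 of 8 (M3 against M2) had an unadjusted p under 0.05. SNAI2, which binds the E-box, was at 58.3 and 68.0 CPM in the M1 libraries, 59.5 and 60.1 in those of M2, 98.9 and 80.2 in those of M3, and 31.1 and 41.6 in those of M4. In M4 against M3, SNAI2 fell by 1.30 ± 0.19 (adjusted p = 0.00619), a call that held under all 11 alternatives. Against M1 its log2 fold change was −0.80 ± 0.18 (adjusted p = 0.0150), under the 2-fold limit. SNAI1, at 1.08 and 0.708 CPM in M1, 0.632 and 1.14 in M3, and 2.44 and 6.03 in M4, rose in M4 by 2.25 ± 0.54 against M1 (adjusted p = 0.0168) and by 2.26 ± 0.54 against M3 (adjusted p = 0.0285). Without M4 replicate 2, the library with 6.03 CPM, both of these calls were lost, at log2 fold changes from 1.47 to 2.77 over the alternatives. They were also lost with the 2 libraries exchanged, at 2.19 ± 0.57 against M1 (adjusted p = 0.0520) and 2.26 ± 0.57 against M3 (adjusted p = 0.0652). ZEB1, a repressor of E-box genes, had at most 1.31 CPM in any library and was not called by edgeR's test, with an adjusted p of 0.111 in M4 against M1. DESeq2 called ZEB1 as lower in M3 than in M2 (−1.70 ± 0.58, adjusted p = 0.0342), its 1 call of a repressor in the 3 comparisons without calls above, and as higher in M4 than in M3 (1.57 ± 0.58, adjusted p = 0.0339). Of all genes, DESeq2 called 2.45% lower in M3 against M2 and 5.51% higher in M4 against M3. In M4, TWIST2 had log2 fold changes of −3.74 ± 0.57 against M1 (adjusted p = 0.00293) and −4.03 ± 0.58 against M3 (adjusted p = 0.00614), and both calls held under all 11 alternatives. TCF4 had −1.89 ± 0.31 against M1 (adjusted p = 0.00403) and −1.18 ± 0.31 against M3 (adjusted p = 0.0381), the second lost under 5 of 11 alternatives. ZEB2 and SNAI3, called in M4 against M1 at −4.21 ± 1.21 (adjusted p = 0.0348) and 2.05 ± 0.59 (adjusted p = 0.0329), lost their calls under 4 and 9 of 11 alternatives.

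**Figure D5:**
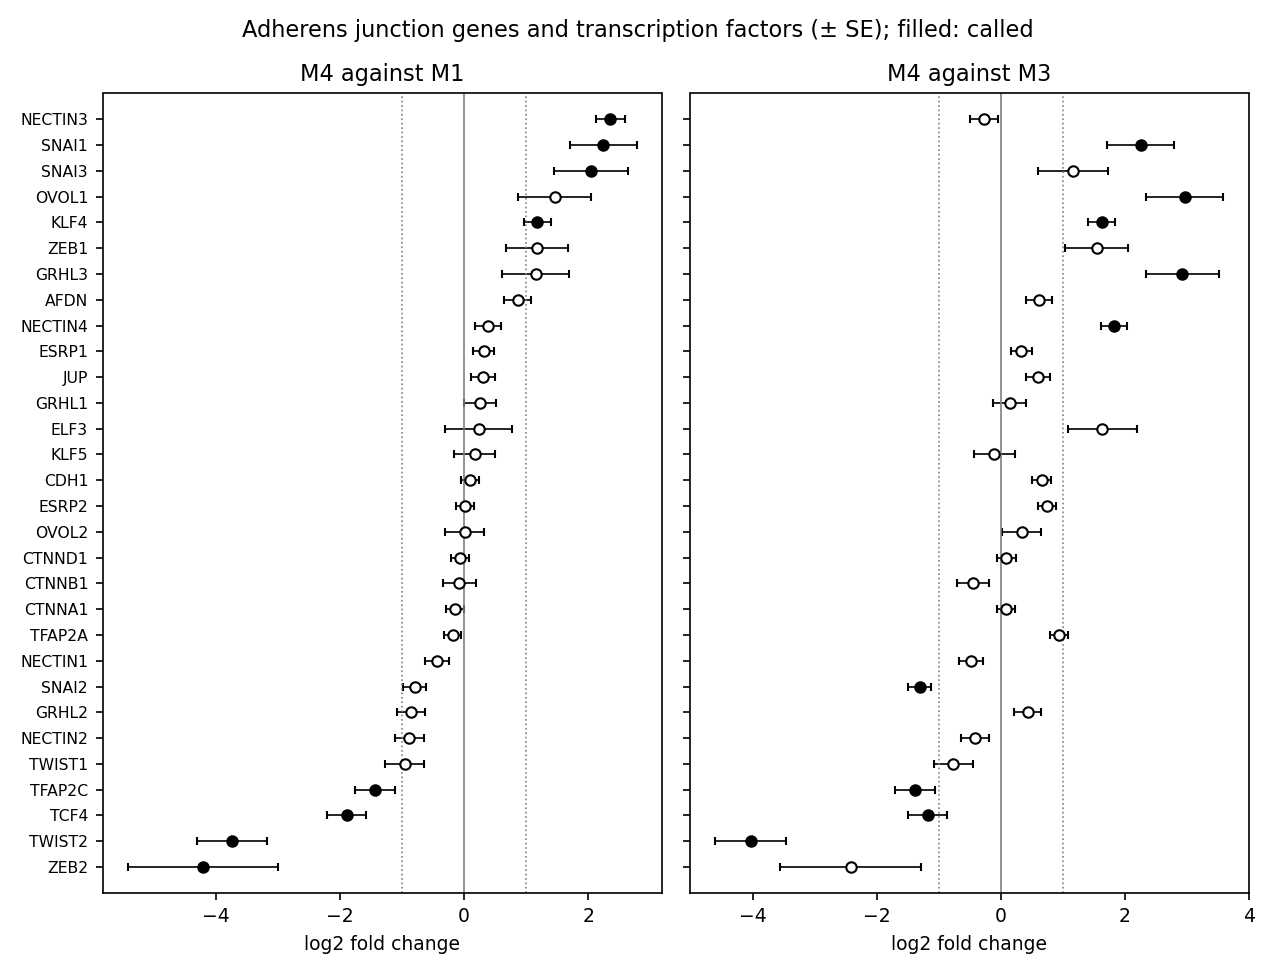
Log2 fold changes (x axis) ± SE of 30 genes, the adherens junction genes, epithelial activators and junction gene repressors, in M4 against M1 and in M4 against M3, with filled points for genes called and dotted lines at 2-fold. SNAI1 lies to the right and TWIST2 and TCF4 to the left in both panels, and CDH1 is an open point in both.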

How the data were processed

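The authors selected poly A+ RNA, sequenced it as paired ends, used Trimmomatic for trimming and STAR for alignment to hg19, checked the mapped reads with Picard and counted them per gene with RSEM on the GENCODE v19 annotation. What they deposited are expected counts from RSEM with no normalization, and 12.8% of the values are not whole. Tool versions and the use of strand in counting are not given in the sources used here. Counts were rounded and fitted in R 4.3.3 with edgeR 4.0.16, after filterByExpr and TMM scaling, by the robust quasi-likelihood F test of a model with a coefficient for each of the 4 lines. P-values were adjusted over 18431 genes (Benjamini-Hochberg), and a gene was called where the adjusted p was under 0.05 and the absolute log2 fold change over 1. The SE is the one implied by F. CPM used TMM-scaled totals, and 0.5 was added before logs were taken for correlations. With 2 replicates per line, p-values measure the spread between these libraries, whose separate origin beyond "biological replicates" is not described. Gene positions and canonical transcripts were those of GENCODE 44 as lifted to GRCh37. The line of each library came from its sample label, and library totals of 69669970 to 107350344 counts entered the fits.

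The 9 genes, the gene lists and the tests were chosen with earlier results of these data known. The text names the 9 genes, MARVELD2, EPCAM, CDH1, GRHL2, SNAI2 and ZEB1, the listed genes called in a comparison (at most 10 by fold), and the 3 genes most like the 2 members of widest range. The values of some listed genes that this rule would name are not reported here, though the genes are in the counts. ELP5 and the markers were named after their values were seen. Alternatives were DESeq2 1.42.0, its type of size factors, no filter, at least 10 counts in 4 libraries, a replicate block, a fit of 2 lines, no limit on the fold, the exchanged libraries and each library left out.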

Additional observations from a re-analysis of the deposited data

How the results depend on the processing

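Of 120 counts of calls compared, 86 were within 1.5 times the reported count. All 165 log2 fold changes recomputed for the 15 differences in which a member other than CLDN3 met the thresholds had the reported sign. Some were small with the exchange, such as −0.0085 ± 0.57 for CLDN7 in M2 against M1. CLDN3, which met the thresholds in M4 against M1, was left out of this tally. With M1 replicate 2 and M2 replicate 1 exchanged, members meeting the thresholds numbered 0 in M2 against M1, 0 in M3 against M1, 2 in M4 against M1, 0 in M3 against M2 and 1 in M4 against M3, and other tight junction genes called numbered 0, 2, 5, 1 and 3. Of all genes tested, 0%, 1.19%, 8.46%, 1.16% and 4.5% were called with the exchange, against 3.37%, 13.5%, 20.7%, 4.15% and 10.3% as labelled, in the same order of comparisons. With each library left out these shares ran from 0% to 4.46%, 8.9% to 11.7%, 12.3% to 18.7%, 0.42% to 2.91% and 3.07% to 8.49%. Without a filter on low counts, and likewise with DESeq2, other tight junction genes called numbered 4 in M2 against M1, 6 in M3 against M2 and 8 in M4 against M3. Of all genes, 6.08%, 6.39% and 9.91% were called without a filter, and 7.13%, 7.77% and 13.1% with DESeq2. A fit of only the 2 lines compared called 5 in M3 against M2, beside 5.52% of all genes. No limit on the fold called 10 in M4 against M3, beside 16.8%. With each library left out in turn, members meeting the thresholds ranged from 0 to 2 in M2 against M1, 2 to 3 in M3 against M1, 3 to 5 in M4 against M1, 0 to 2 in M3 against M2 and 2 to 5 in M4 against M3. Other tight junction genes called ranged from 0 to 3, 4 to 5, 5 to 7, 0 to 4 and 2 to 6 in the same order. The lowest counts for M2 came without M2 replicate 1 or 2 (0 members and 0 other genes in both its comparisons), and for M4 against M3 without M3 replicate 1 (2 members). A line left with 1 library was assumed to vary like the rest.

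Whether replicate numbers pair the samples is not described. Deviations of same-numbered libraries correlated at 0.21 between M3 and M4, and at −0.05 to 0.02 between the other pairs of lines. A replicate block gave 3, 2, 4, 2 and 4 members in the order of comparisons above and 2, 4, 9, 4 and 4 other tight junction genes, with the calls of CLDN3, CLDN9, CLDN15 and CLDN23 lost. With the block, 3.18%, 12.7%, 19.7%, 3.66% and 9.53% of all genes were called. Depth limits CLDN3, CLDN9 and CLDN20 in M1 and M2, and CLDN8 in M4, where libraries held 10 counts or fewer. The 2 replicates per line limit all calls.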

Other observations

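Genes whose starts lie within 100 kb of the starts of OCLN, CLDN4 and CLDN7 were examined after the values of these genes were seen. OCLN had 2 such protein-coding neighbours, MARVELD2 and GTF2H2C, and neither was called in M4 against M1, at log2 fold changes of 0.42 ± 0.24 and 0.32 ± 0.23, or in M4 against M3. CLDN4 had 4 neighbours tested, but 1 of them, CLDN3, is itself among the 9 chosen genes and passed the filter on low counts only through M4. CLDN3 was called higher in M4 than in M1. Of the other neighbours only ABHD11 was, beside 9.48% of all genes. The call of CLDN3 rested on 0 counts in M1 and was lost with a replicate block, with the 2 libraries exchanged and without any 1 library of M1 or M4. ABHD11, a mitochondrial hydrolase, was at a mean of 22.1 CPM in M4, 21.8 in M3, 12.9 in M2 and 9.79 in M1. It rose in M4 by 1.17 ± 0.25 against M1 (adjusted p = 0.0102 in edgeR's quasi-likelihood test). Against M3 its log2 fold change was 0.02 ± 0.24, and a link with the level of CLDN4 was not tested. CLDN7 had 16 neighbours tested. In M4 against M1, 0 of them rose and 2 fell, beside 9.48% and 11.2% of all genes. The 2 were DLG4, a scaffold protein of synapses, at −3.71 ± 0.49 on the log2 scale (adjusted p = 0.00166) and YBX2, a germ-cell RNA-binding protein, at −3.29 ± 0.72 (adjusted p = 0.0119). In M4 against M3 both were again lower, DLG4 at −1.78 ± 0.46 and YBX2 at −3.69 ± 0.72, and ENSG00000261915, which had at most 57 counts in a library, was called higher. Of all genes, 6.3% were called lower and 3.99% higher in that comparison. GABARAP, an autophagy protein, was at a mean of 237 CPM in M1 and 131 in M4, a log2 fold change of −0.86 ± 0.23 (adjusted p = 0.0253), and DVL2, of the Wnt pathway, was at 0.62 ± 0.13 (adjusted p = 0.0106), both under the 2-fold limit. ACADVL, EIF5A, CTDNEP1 and PHF23 had log2 fold changes from −0.14 to 0.39 in M4 against M1 and were not called.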
